A study of Caenorhabditis elegans with 4 samples.

Results

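The genes described here encode the machinery of oxidative phosphorylation, the making of ATP by mitochondrial respiration. They were chosen by name from the authors' deposited table of 18638 features: the gene classes nuo, cox, atp, asb, asg, ucr, cyc, sdha, sdhb, sdhd, nduo, ndfl, ctc and ctb with a number, together with gas-1, isp-1, mev-1 and lpd-5. The rule found 46 genes, of which 12 lie in the mitochondrial genome and 34 in the nuclear genome. It used no measured value. The 12 mitochondrial genes are 7 subunits of complex I, cytochrome b of complex III, the 3 large subunits of complex IV and 1 subunit of the ATP synthase. The 34 nuclear genes are 8 subunits of complex I, 5 of complex II, 7 of complex III, the 2 cytochrome c genes, 4 assembly factors of complex IV and 8 subunits of the ATP synthase. Nuclear subunits of complex IV, and many of complex I, stand in the table under sequence names and fall outside the rule.

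Oxidative phosphorylation is carried out by 5 protein complexes of the inner mitochondrial membrane and by cytochrome c, which carries electrons between complexes III and IV. Complexes I and II pass electrons from nutrients to ubiquinone, complexes III and IV pass them on to oxygen, and complex V, the ATP synthase, uses the proton gradient so built to make ATP. The subunits of complexes I, III, IV and V come in part from the mitochondrial genome and in part from the nucleus, whereas complex II is made from nuclear genes alone. Muscle and the germ line of the worm both depend on these complexes.

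The samples were poly(A)-selected RNA of whole gravid adult Caenorhabditis elegans, 2 libraries of the strain YY1449 and 2 of N2. YY1449 is mutant for rde-3, also called mut-2. Its product, a nucleotidyltransferase, puts poly(UG) tails on RNAs and acts in RNA interference. N2 is the standard laboratory wild type. The labels name no allele, and with 1 strain per genotype the mutation and any other strain difference cannot be told apart.

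For each gene the authors' deposited table gives its mean normalized count across the 4 libraries, its log2 fold change with a standard error, and p-values. Values per library were not analysed here, so the total reads of each library are unknown and the spread of replicates cannot be shown. Levels per genotype below are the means implied by that table's mean and fold change, and every error is its standard error. A gene is called higher or lower where the table's adjusted p is under 0.05, and positive log2 values were taken as higher in YY1449 because the comparison's name puts the mutant first. The RNA of mut-2 itself had a log2 fold change of 0.06 ± 0.16 (adjusted p = 0.905) by the authors' deposited table, which checks neither the genotype nor the direction. In whole animals, fewer cells of a type and less RNA per cell cannot be told apart.

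Of the 46 genes, 19 were lower in YY1449 and 1 was higher in the authors' deposited table, against 8.04% lower and 9.42% higher among all 18638 features. Most of these genes are abundant, and abundant features are called more often: of the 2868 features with a mean of at least 1000 normalized counts, 14.5% were lower and 32.5% higher. The log2 value was negative for 42 of the 46 genes, and their median was -0.34, against 0.19 over those 2868 features and -0.02 over all features. All 46 had an adjusted p, as did all 18638 features, so a gene dropped before the authors' adjustment would not be seen here. The genes of the mitochondrial genome lay lower than the nuclear ones. Of the 12 mitochondrial genes, 10 were lower and 0 higher by the authors' deposited adjusted p (11 lower and 0 higher at an unadjusted p under 0.05), with a median log2 of -0.76. Of the 34 nuclear genes, 9 were lower and 1 was higher, with a median of -0.24. This difference between the genomes is a description and was not tested, since genes are not replicates.

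**Figure D1:**
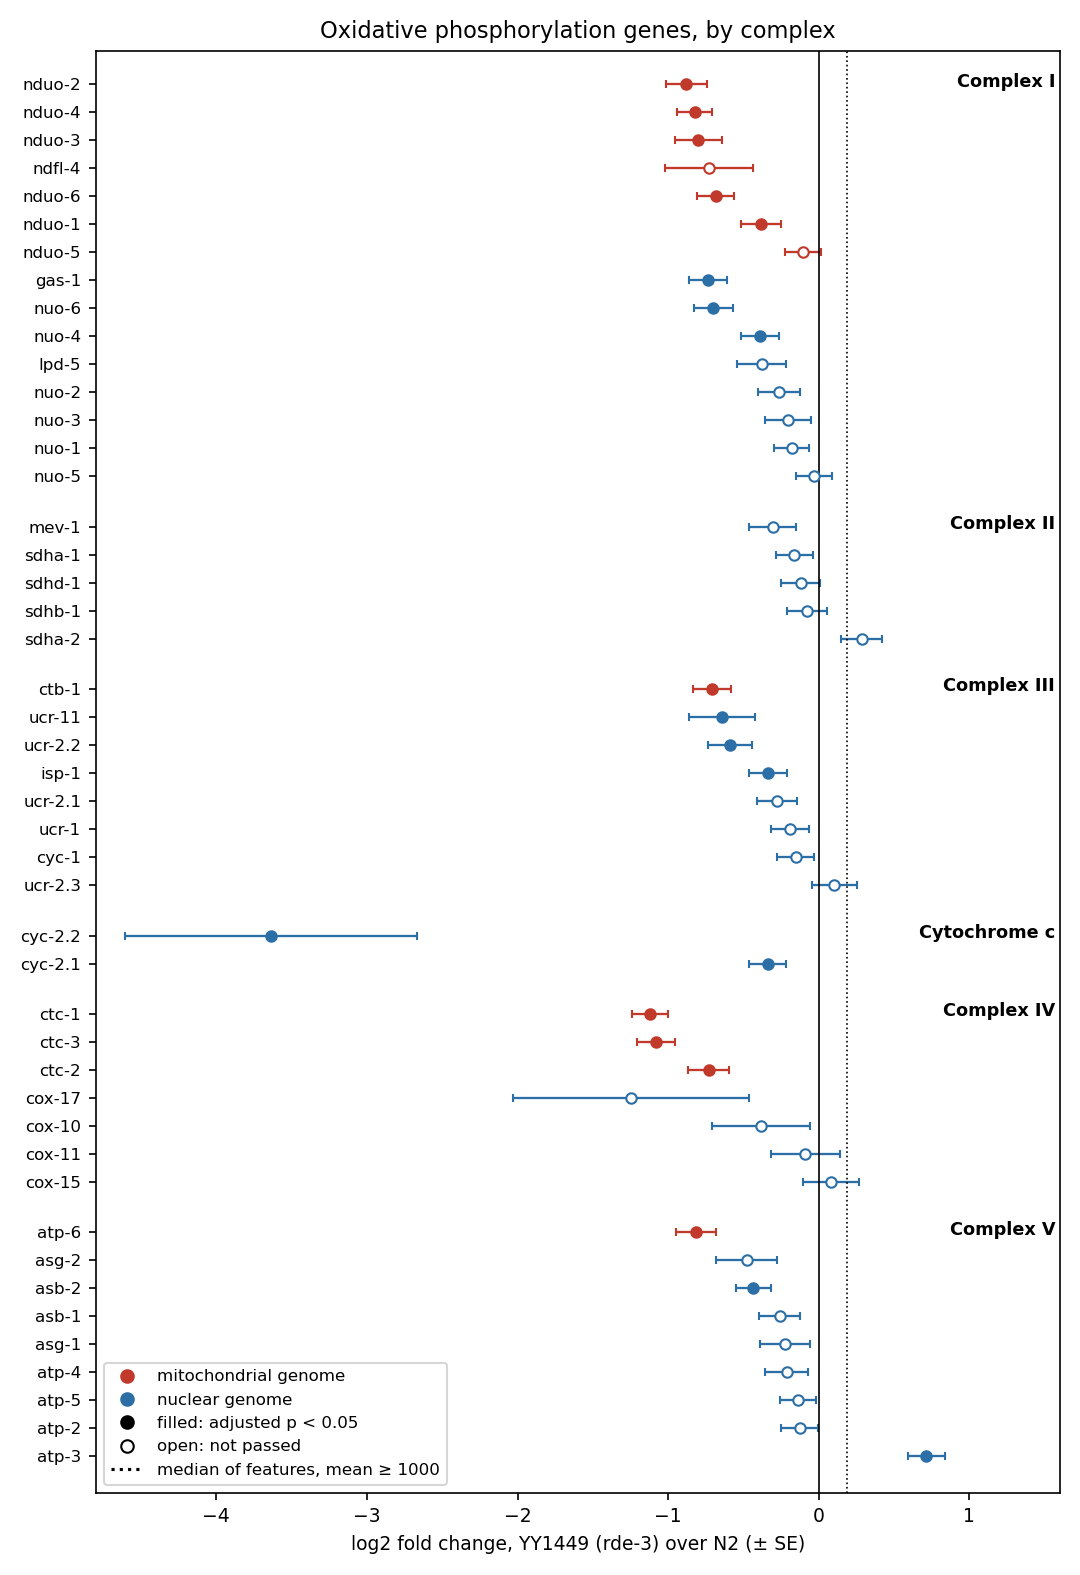
Log2 fold change of YY1449 over N2 (x axis) for each of the 46 genes, grouped by complex, with the standard errors of the authors' deposited table as bars. Red points are mitochondrial genes and blue points nuclear genes, filled where the adjusted p is under 0.05. The dotted line marks 0.19, the median of abundant features. The mitochondrial genes lie between -1.12 and -0.10. Complex II, with 5 genes, holds no filled point, where 8.04% of all features were lower and 9.42% higher.

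These calls take the authors' deposited test statistic as normal. When the same statistics of the authors were read with a t distribution of 2 degrees of freedom, 0 of the 46 genes passed (smallest adjusted p = 0.682). Of all 18638 features 0 passed with that distribution, so its 0 says nothing particular to these genes. The fitted model is not given, so whether 2 degrees of freedom suit its errors is not known. At an unadjusted p under 0.05 that distribution gives 11 genes lower and 1 higher, where the normal distribution gives 24 lower and 2 higher.

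The 3 mitochondrial subunits of complex IV, which hold its catalytic core, were all lower in YY1449, and 2 of them had the lowest log2 values of the 12. The gene ctc-1 (mitochondrial genome, 7827 to 9428, build WBcel235) encodes the subunit where oxygen is reduced. Its implied mean was 92587 normalized counts in YY1449 and 201029 in N2, and its log2 fold change in the authors' deposited table was -1.12 ± 0.12 (adjusted p = 2.9e-18), a level 2.17-fold lower. For ctc-3 (5678 to 6449) the means were 17418 in YY1449 and 36768 in N2, with a log2 of -1.08 ± 0.13 (adjusted p = 2.1e-15) by the authors' deposited table. The gene ctc-2 (9649 to 10348), whose product receives electrons from cytochrome c, had 11086 in YY1449 and 18382 in N2, with a log2 of -0.73 ± 0.14 (adjusted p = 2.3e-06) by the authors' deposited table. Summed over the 3 genes the normalized counts were 121091 in YY1449 and 256179 in N2, 2.12-fold lower.

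The mitochondrial subunits of complexes III and V fell as well. Cytochrome b, the only mitochondrial subunit of complex III, is encoded by ctb-1 (4504 to 5621) and had 27199 normalized counts in YY1449 and 44442 in N2, with a log2 of -0.71 ± 0.13 (adjusted p = 7.1e-07) by the authors' deposited table. The gene atp-6 (2634 to 3235), for the subunit that forms part of the proton channel of the ATP synthase, had 5808 in YY1449 and 10213 in N2 and a log2 of -0.81 ± 0.13 (adjusted p = 3.4e-08) by the authors' deposited table. These are levels 1.63-fold and 1.76-fold lower in YY1449.

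Of the 7 mitochondrial subunits of complex I, which make up its proton-pumping membrane arm, 5 were lower, and the sizes were unequal. The lowest log2 in the authors' deposited table was that of nduo-2 (3389 to 4269), -0.88 ± 0.13 (adjusted p = 3.7e-09), with 1425 normalized counts in YY1449 and 2622 in N2. Close to it were nduo-4 (6506 to 7808), with 9809 in YY1449 and 17358 in N2, and nduo-3 (11356 to 11691), with 696 in YY1449 and 1212 in N2, at log2 values of -0.82 ± 0.12 and -0.80 ± 0.16 by the authors' deposited table (adjusted p = 1.6e-10 and 9.9e-06). The gene nduo-6 (up to position 549) had 4720 in YY1449 and 7585 in N2, with a log2 of -0.68 ± 0.12 (adjusted p = 8.4e-07) by the authors' deposited table. The smallest change called among the 7 was that of nduo-1 (1763 to 2635), with 2898 in YY1449 and 3780 in N2 and a log2 of -0.38 ± 0.13 (adjusted p = 0.0218) by the authors' deposited table. That call was lost once a trend with exon length was removed from the authors' fold changes (log2 -0.20, adjusted p = 0.412).

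The other two mitochondrial subunits of complex I did not pass. The gene nduo-5 (11691 to 13272) had 11757 normalized counts in YY1449 and 12626 in N2, with a log2 of -0.10 ± 0.12 (adjusted p = 0.726) by the authors' deposited table. It shares 1 base with nduo-3, which was 1.74-fold lower. The short gene ndfl-4 (549 to 783) had 117 in YY1449 and 194 in N2, the fewest counts of the 12, and its log2 of -0.73 ± 0.29 by the authors' deposited table had an adjusted p of 0.0675. It passed where the authors' values were recentred on the median of those features whose mean is at least 100, a shift of 0.06 in log2 (adjusted p = 0.0441). The 12 genes, all read in the same direction along the genome, thus spanned log2 values of -1.12 to -0.10, and differences between them were not tested.

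**Figure D2:**
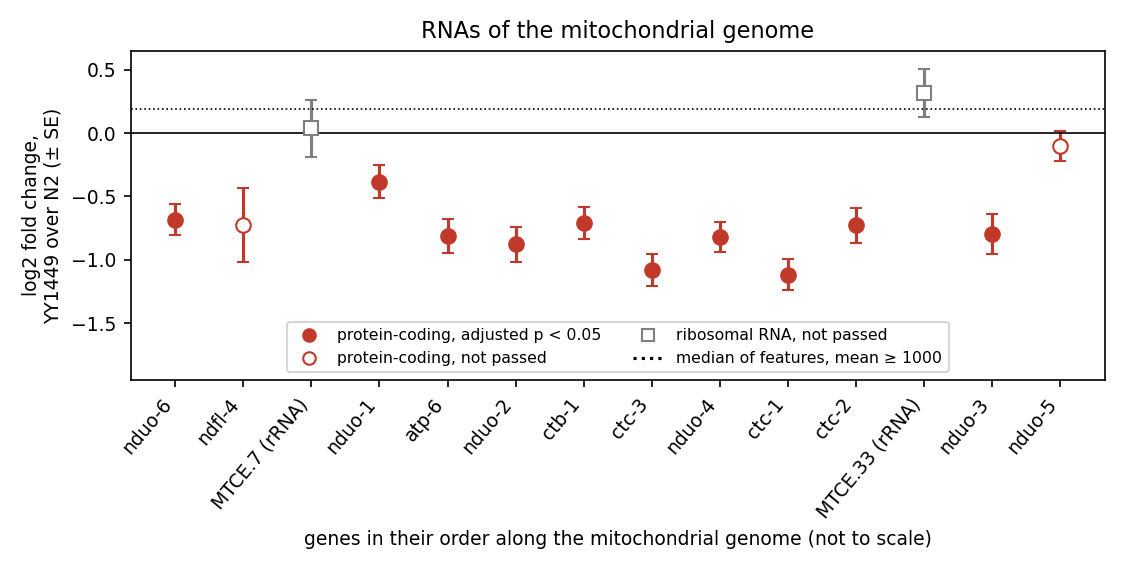
Log2 fold change of YY1449 over N2 (y axis, with the standard errors of the authors' deposited table) for the 12 protein-coding and 2 ribosomal RNA genes, placed in their order along the mitochondrial genome but not to scale. Filled circles passed the adjusted p threshold, and the dotted line is 0.19, the median of abundant features. The lowest points are ctc-3 and ctc-1, and nduo-5 at -0.10 and both ribosomal RNAs lie near or above 0.

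The structural RNAs of the mitochondrial genome did not pass in either direction. The ribosomal RNA gene MTCE.7 (898 to 1593) had 309 normalized counts in YY1449 and 300.4 in N2, with a log2 of 0.04 ± 0.23 (adjusted p = 0.955) by the authors' deposited table. The other, MTCE.33 (10403 to 11354), had 947 in YY1449 and 760.1 in N2, with a log2 of 0.32 ± 0.19 (adjusted p = 0.296) by the authors' deposited table. The table lists 21 mitochondrial transfer RNAs at means of 0.589 to 31.6, of which 0 passed by the authors' deposited adjusted p and 0 had an unadjusted p under 0.05. Their log2 values had a median standard error of 1.87, so a fall of the size seen in the protein genes could have gone uncalled. The libraries were selected for poly(A), so these levels are of RNA recovered on oligo(dT) beads.

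Summed over the 12 mitochondrial protein genes, the normalized counts were 185521 in YY1449 and 356210 in N2, 1.92-fold lower. Much of that sum is ctc-1: without it the sums were 92933 in YY1449 and 155181 in N2, 1.67-fold lower, and the median log2 of the other 11 genes was -0.73. The sum over the 34 nuclear genes was 109568 in YY1449 and 122824 in N2, 1.12-fold lower. These folds depend on the scale, because the sum over all features was 24431393 in YY1449 and 18938811 in N2, 1.29-fold higher. As shares of that sum, the mitochondrial genes held 0.759% in YY1449 and 1.88% in N2. The nuclear genes held 0.448% in YY1449 and 0.649% in N2.

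Levels per kilobase of exon spanned a wide range among the mitochondrial genes. Counts were divided by whole exon length, with no allowance for fragment length or for unequal recovery of RNAs on oligo(dT) beads. The highest was ctc-1, with 57795 normalized counts per kb in YY1449 and 125486 in N2, and the lowest was ndfl-4, with 498 per kb in YY1449 and 825 in N2. Among nuclear genes the highest level was that of atp-2 (chromosome III, 5228417 to 5230536), the catalytic beta subunit of the ATP synthase, with 21947 per kb in YY1449 and 23971 in N2. The next of the nuclear genes that the rule chose, atp-5, had 4847 per kb in YY1449 and 5342 in N2, and 8 of the 12 mitochondrial genes exceeded it in both genotypes. The ATP synthase alpha subunit atp-1, outside the rule, had a mean of 18557 per kb over the 4 libraries. In YY1449 the levels per kb of ctc-1, ctb-1 and ctc-3 were above that of atp-2 and that of ctc-2, at 15837, was below it, whereas in N2 all 4 were above it.

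**Figure D3:**
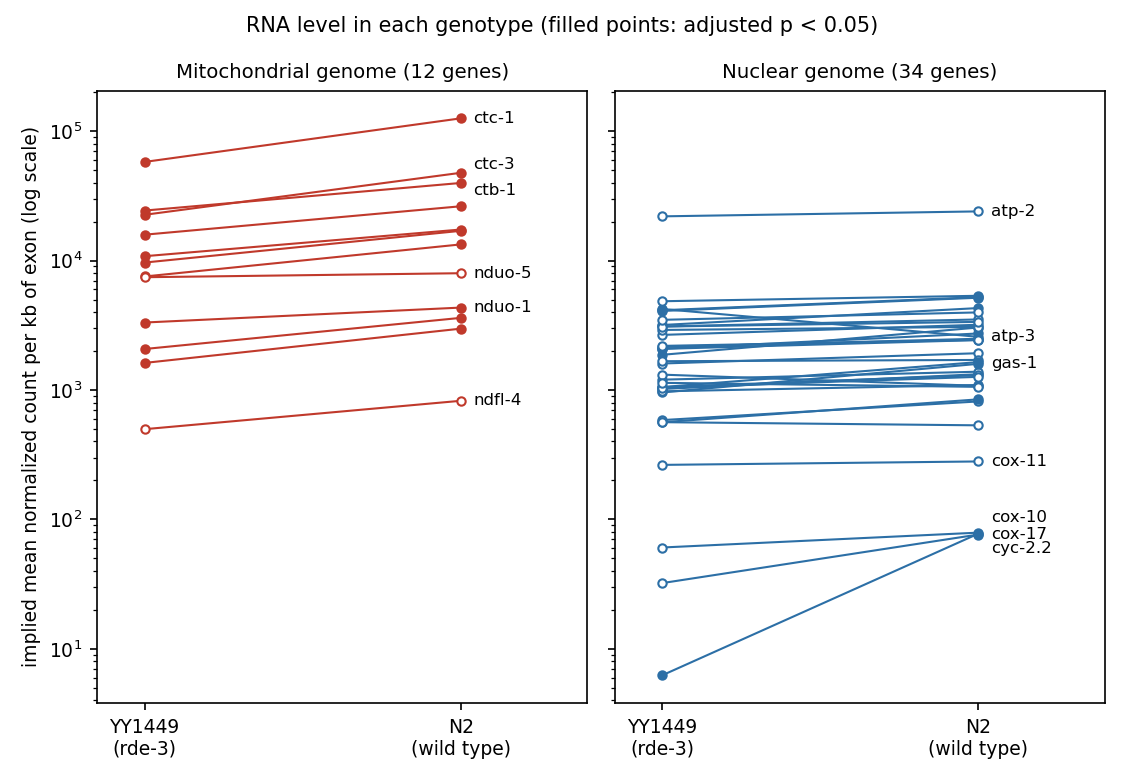
Implied mean normalized count per kb of exon (y axis, log scale) in YY1449 and in N2 for each gene, joined by a line, with mitochondrial genes in the left panel and nuclear genes in the right one. Filled points mark genes with an adjusted p under 0.05 in the authors' deposited table. The lines of all 12 mitochondrial genes rise toward N2, that of nduo-5 least, and most nuclear lines are nearly flat. The steepest line is that of cyc-2.2, at 6.24 per kb in YY1449 and 77.6 in N2.

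All 8 nuclear subunits of complex I had negative log2 values, and 3 of them were lower in YY1449. The core subunit gas-1 (chromosome X, 15586786 to 15590397), which lies in the path of electrons to ubiquinone and whose mutants are hypersensitive to volatile anaesthetics, had 1614 normalized counts in YY1449 and 2687 in N2. Its log2 fold change in the authors' deposited table was -0.74 ± 0.13 (adjusted p = 1.6e-07), 1.66-fold lower. It shares 26 exonic bases with K09A9.6 on the opposite strand, and the library kit kept no record of strand. That gene had a mean of 96.1 and a log2 of -0.89 ± 0.35 (adjusted p = 0.0552) by the authors' deposited table, and the part of its reads in the value of gas-1 was not tested. The accessory subunit nuo-6 (chromosome I, 7068116 to 7069186), in which a mutation lengthens life, had 1215 in YY1449 and 1975 in N2 and a log2 of -0.70 ± 0.13 (adjusted p = 2.3e-06) by the authors' deposited table. The accessory subunit nuo-4 (chromosome III, 7156026 to 7158809) had 3414 in YY1449 and 4480 in N2, with a log2 of -0.39 ± 0.13 (adjusted p = 0.0149) by the authors' deposited table.

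The other 5 nuclear subunits of complex I did not pass. The gene lpd-5 (chromosome I, 4372255 to 4373018), an accessory subunit, had 627 normalized counts in YY1449 and 815 in N2, with a log2 of -0.38 ± 0.16 and an adjusted p of 0.0980 in the authors' deposited table. It passed after the same recentring of the authors' values (adjusted p = 0.0468). The core subunits nuo-1, nuo-2 and nuo-5 and the accessory subunit nuo-3 had log2 values between -0.26 and -0.03 in that table. Of its exonic bases nuo-3 shares 783 with another annotated gene on the same strand, and reads from those bases cannot be told apart. With C24B9.3, on the opposite strand, nuo-5 shares 19 exonic bases. That gene had a log2 of 0.76 ± 0.13 (adjusted p = 8.1e-08) by the authors' deposited table, and its part in the value of nuo-5 was not tested. The highest level per kb among the nuclear complex I genes was that of nuo-1, with 3094 in YY1449 and 3506 in N2, and a log2 of -0.18 ± 0.12 by the authors' deposited table. The median log2 was -0.22 over the 4 core subunits and -0.39 over the 4 accessory ones, against -0.73 over the 7 mitochondrial subunits of the same complex.

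Complex II, which is also the succinate dehydrogenase of the citric acid cycle, has no mitochondrial gene. Of its 5 genes 0 were called by the authors' deposited adjusted p (1 lower and 1 higher at an unadjusted p under 0.05). Over all 18638 features 8.04% were lower and 9.42% higher, so 0 calls among 5 genes is near those shares. Over features with a mean of at least 1000 the shares were 14.5% and 32.5%. The 2 genes for its flavoprotein had log2 values of opposite sign in the authors' deposited table: sdha-1 (chromosome X) had 2342 normalized counts in YY1449 and 2620 in N2, and sdha-2 (chromosome I) had 2673 in YY1449 and 2191 in N2, with log2 values of -0.16 ± 0.12 and 0.29 ± 0.14. Neither passed by the authors' values (adjusted p = 0.480 for sdha-1 and 0.147 for sdha-2). The membrane anchor gene mev-1 (chromosome III), in which a mutation makes worms sensitive to oxygen, had 766 in YY1449 and 947 in N2, with a log2 of -0.31 ± 0.16 (adjusted p = 0.187) by the authors' deposited table. The iron-sulfur subunit sdhb-1 and the other anchor, sdhd-1, had log2 values of -0.08 ± 0.13 and -0.12 ± 0.13 there, and sdhd-1 had the highest level per kb of the complex, 3088 in YY1449 and 3358 in N2. The median of the 5 was -0.12, which is below the 0.19 of abundant features.

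Of the 7 nuclear subunits of complex III, 3 were lower in YY1449. The Rieske iron-sulfur protein gene isp-1 (chromosome IV, 8134016 to 8136055), another gene in which a mutation lengthens life, had 4073 normalized counts in YY1449 and 5140 in N2. Its log2 of -0.34 ± 0.13 by the authors' deposited table was close to the threshold (adjusted p = 0.0467), and the call was lost when the length trend was removed (adjusted p = 0.463). The small subunit ucr-11 (chromosome I, 6552834 to 6553379) had 296 in YY1449 and 462 in N2, with a log2 of -0.64 ± 0.22 (adjusted p = 0.0234) by the authors' deposited table. Without the length trend its log2 was -0.45 and its adjusted p by the authors' values was 0.189.

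The core protein genes ucr-2.1, ucr-2.2 and ucr-2.3 of complex III are paralogs, and only ucr-2.2 passed in the authors' deposited table. It (chromosome X, 15173904 to 15178145) had 810.0 normalized counts in YY1449 and 1217 in N2, with a log2 of -0.59 ± 0.15 (adjusted p = 8.2e-04) by the authors' deposited table. The values of ucr-2.1 (chromosome X) were 1495 in YY1449 and 1809 in N2, with a log2 of -0.28 ± 0.13 (adjusted p = 0.162) by the authors' deposited table. Those of ucr-2.3 (chromosome III) were 1534 in YY1449 and 1428 in N2, with a log2 of 0.10 ± 0.15 (adjusted p = 0.802) by the authors' deposited table. Differences between the paralogs were not tested, and the labels do not say how the authors counted reads that match several places. That limit holds for every group of paralogs here. The 2 remaining subunits, cytochrome c1 (cyc-1) and the core protein ucr-1, had log2 values of -0.15 ± 0.12 and -0.19 ± 0.13 by the authors' deposited table. On opposite strands, cyc-1 shares 61 exonic bases with C54G4.7 and ucr-2.3 shares 16 with zer-1. These partners had log2 values of -0.62 ± 0.17 and 0.50 ± 0.14 by the authors' deposited table (adjusted p = 0.00233 and 0.00468). Their part in the values of cyc-1 and ucr-2.3 was not tested.

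Both cytochrome c genes were lower, at very different levels. The gene cyc-2.1 (chromosome IV, 4747895 to 4749012) had 2238 normalized counts in YY1449 and 2833 in N2, with a log2 of -0.34 ± 0.12 (adjusted p = 0.0327) by the authors' deposited table, and it lost the call without the length trend (log2 -0.06, adjusted p = 0.889). The other, cyc-2.2 (chromosome V, 12611682 to 12612218), had the largest fold change of the 46 genes, with 2.73 in YY1449 and 33.98 in N2 and a log2 of -3.64 ± 0.97 (adjusted p = 0.00209) by the authors' deposited table. It rests on about 5 reads in YY1449 and 81 in N2, which put the level in YY1449 4.93-fold to 37.9-fold below that in N2 (95% exact interval, counting error only). It lies within an intron of ZC116.3, on the other strand.

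For the ATP synthase, 1 of the 8 nuclear subunits was higher in YY1449 and 1 was lower. These counts are near the shares over all features, 9.42% higher and 8.04% lower. The gene that rose, and the only one of the 46 to do so, was atp-3 (chromosome I, 5428533 to 5429908), which encodes the subunit that joins the catalytic head to the stalk. It had 4363 normalized counts in YY1449 and 2659 in N2, with a log2 of 0.71 ± 0.12 (adjusted p = 1.2e-07) by the authors' deposited table, 1.64-fold higher. Its nearest neighbour at higher coordinates, F27C1.2, begins 248 bases away on the opposite strand and had 3852 in YY1449 and 2256 in N2, with a log2 of 0.77 ± 0.13 (adjusted p = 1.6e-07) by the authors' deposited table. At lower coordinates the nearest gene, F27C1.3, lies 1303 bases away and had 44.5 in YY1449 and 49.5 in N2, with a log2 of -0.15 ± 0.48 (adjusted p = 0.915) by the authors' deposited table. Both neighbours were named after their values were seen, and whether either has a part in the rise of atp-3 was not tested.

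The subunit b of the ATP synthase stalk has 2 genes, asb-1, reported to serve the germ line, and asb-2, its somatic counterpart. The one that fell was asb-2 (chromosome X, 4469766 to 4471476), with 3752 normalized counts in YY1449 and 5070 in N2 and a log2 of -0.43 ± 0.12 (adjusted p = 0.00238) by the authors' deposited table. Its paralog asb-1 (chromosome III) had 2733 in YY1449 and 3274 in N2, with a log2 of -0.26 ± 0.14 (adjusted p = 0.214) by the authors' deposited table. The paralogs for subunit g did not pass: asg-1 (chromosome I) had 988 in YY1449 and 1157 in N2, and asg-2 (chromosome X) had 291 in YY1449 and 405 in N2, with log2 values of -0.23 ± 0.17 and -0.48 ± 0.21 by the authors' deposited table (adjusted p = 0.460 and 0.0943). The remaining subunits atp-2, atp-4 and atp-5 had log2 values of -0.13 ± 0.12, -0.21 ± 0.14 and -0.14 ± 0.12 there.

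The 4 assembly factors of complex IV did not pass, and 0 of them had an unadjusted p under 0.05 in the authors' deposited table. With 8.04% of all features lower and 9.42% higher, 0 calls among 4 genes is near those shares. The heme A synthesis enzymes cox-10 and cox-15 had log2 values of -0.38 ± 0.33 and 0.08 ± 0.18, and the copper factors cox-11 and cox-17 had -0.09 ± 0.23 and -1.25 ± 0.78, by the authors' deposited table. The means of cox-17, whose error is the largest of the 4, were 10.3 normalized counts in YY1449 and 24.5 in N2. The highest level per kb of the 4 was that of cox-15, with 564 in YY1449 and 533 in N2.

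Of the 34 nuclear genes 6 lie on the X chromosome, and their median log2 was lower than that of the autosomal ones. All 6 were negative, 3 were lower (gas-1, ucr-2.2 and asb-2) and their median was -0.46, against -0.21 over the 28 autosomal genes, of which 6 were lower and 1 was higher in the authors' deposited table. X-linked genes as a whole were shifted the same way in that table: 189 of them with a mean of at least 1000 had a median log2 of -0.01, with 55 lower and 41 higher, against 0.20 over 2628 autosomal genes, with 347 lower and 873 higher. Whether that shift has a part in the values of the 6 genes was not tested.

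**Figure D4:**
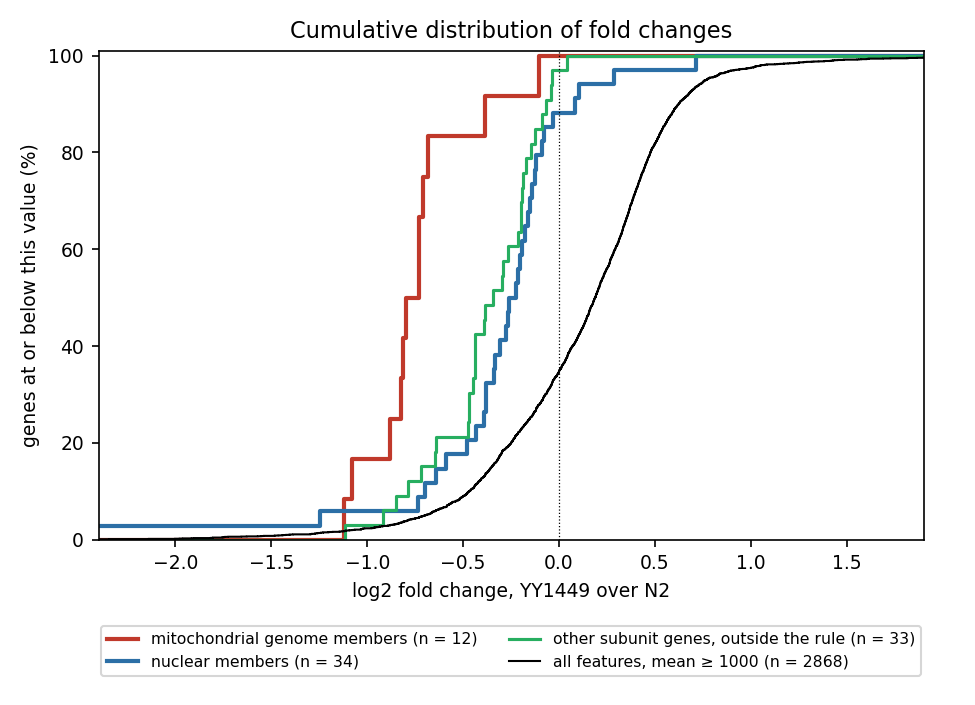
Cumulative share of genes (y axis, percent) at or below each log2 fold change of YY1449 over N2 (x axis) in the authors' deposited table, for the 12 mitochondrial genes, the 34 nuclear genes, 33 further subunit and assembly genes outside the naming rule, and all 2868 features with a mean of at least 1000. The medians are -0.76, -0.24, -0.34 and 0.19, and cyc-2.2 lies beyond the left edge at -3.64.

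Pathways that feed the respiratory chain had medians nearer 0 than the -0.34 of the 46 genes, but below the 0.19 of abundant features. Beside the counts of these and the following lists, 8.04% of all 18638 features were lower and 9.42% higher. Of 19 genes of the citric acid cycle and pyruvate dehydrogenase, 4 were lower and 0 higher, with a median log2 of -0.14 by the authors' deposited table. The 3 of smallest adjusted p were idhg-2, a subunit of isocitrate dehydrogenase, with 119 normalized counts in YY1449 and 231 in N2, and sucl-1 and suca-1 of succinyl-CoA ligase, with log2 values of -0.96 ± 0.28, -0.42 ± 0.13 and -0.35 ± 0.12 by the authors' deposited table. Of 8 genes of ubiquinone synthesis, 1 was lower and 1 was higher, near the shares over all features, with a median of -0.10. The methyltransferase gene coq-5 fell to 742 in YY1449, against 1397 in N2, with a log2 of -0.91 ± 0.15 (adjusted p = 2.0e-08) by the authors' deposited table. The gene coq-1, which makes the isoprenoid tail, rose to 682 in YY1449, against 433 in N2 (log2 0.65 ± 0.17, adjusted p = 0.00175, by the authors' deposited table). Of 7 genes of complex assembly and regulation, nuaf-3 alone passed, at a log2 of -0.70 ± 0.24 (adjusted p = 0.0247) by the authors' deposited table.

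Genes that maintain and express the mitochondrial genome were few in the list, and 2 of the 4 measured, of 5 listed, were lower by the authors' deposited adjusted p. Among all features 8.04% were lower. The single-stranded DNA-binding protein gene mtss-1 had 858 normalized counts in YY1449 and 1580 in N2, with a log2 of -0.88 ± 0.17 (adjusted p = 9.1e-06) by the authors' deposited table. The mitochondrial DNA-packaging protein gene hmg-5 had 662 in YY1449 and 1014 in N2, with a log2 of -0.62 ± 0.15 (adjusted p = 7.4e-04) by the authors' deposited table. The DNA polymerase gene polg-1 and the RNA polymerase gene rpom-1 did not pass, at 0.37 ± 0.20 and -0.08 ± 0.14 there.

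Of 6 inner membrane carriers, 2 were lower and 1 was higher. The abundant ADP/ATP carrier ant-1.1 had 28952 normalized counts in YY1449 and 38301 in N2, with a log2 of -0.40 ± 0.12 (adjusted p = 0.00694) by the authors' deposited table. There misc-1, a carrier of 2-oxoglutarate, was at -0.52 ± 0.14 and the uncoupling protein ucp-4 at 0.87 ± 0.20. Of 10 genes of the mitochondrial stress response, 1 was lower and 1 was higher, with a median of -0.01. These counts are near the shares over all features, 8.04% lower and 9.42% higher. The transcription factor gene atfs-1 rose at a log2 of 0.42 ± 0.14 (adjusted p = 0.0167) by the authors' deposited table, and timm-23, an import channel subunit, fell at -0.54 ± 0.14. Of 19 glycolysis genes, 5 were lower and 3 higher, with a median of 0.03. Among these the aldolase aldo-1 had 545 in YY1449 and 1718 in N2, with a log2 of -1.66 ± 0.14 by the authors' deposited table, and the closely related dehydrogenase genes gpd-1 and gpd-4 rose at 1.02 ± 0.13 and 0.86 ± 0.12. Their paralogs gpd-2 and gpd-3, named after their values were seen, fell at -0.62 ± 0.12 and -0.54 ± 0.13 by the authors' deposited table (adjusted p = 3.8e-06 and 4.3e-04), and how reads were divided among these closely related genes is uncertain.

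Markers of several cell types moved in the same comparison, in which 8.04% of all features were lower and 9.42% higher. Of 22 muscle genes 17 were lower and 0 higher, with a median log2 of -1.41 in the authors' deposited table and summed levels of 52678 normalized counts in YY1449 and 134799 in N2. The 3 of smallest adjusted p were tnt-2, dim-1 and mup-2, of which tnt-2 and mup-2 encode troponin T, at levels 3.90-fold, 4.01-fold and 3.94-fold lower in the authors' deposited table. Of 26 sperm genes 24 were lower and 1, spe-41, was higher (log2 1.76 ± 0.33 by the authors' deposited table), with a median of -2.88 and sums of 915 in YY1449 and 4513 in N2. The sperm genes of smallest adjusted p, msp-76, sss-1 and msp-59, had log2 values of -3.08 ± 0.29, -3.30 ± 0.33 and -3.13 ± 0.33 by the authors' deposited table. Of 17 oocyte genes 14 were higher and 0 lower, with a median of 0.45 and sums of 360221 in YY1449 and 260887 in N2; cav-1, cpg-2 and puf-3 led them at 1.53 ± 0.21, 0.75 ± 0.12 and 0.57 ± 0.12 by the authors' deposited table. None of these 3 lists held a gene at a mean of 3 or less. Germline genes moved both ways: of 16, 5 were higher and 4 lower, with a median of 0.02. The 3 of smallest adjusted p were fbf-2 at -1.14 ± 0.18, glh-2 at 0.81 ± 0.13 and fbf-1 at -0.84 ± 0.19 by the authors' deposited table. Of 15 intestine genes 3 were higher and 3 lower, with a median of 0.11, and cpr-1, ges-1 and vit-2 led them at 1.28 ± 0.11, 1.08 ± 0.16 and -0.90 ± 0.15 in that table. The 18 neuron genes had a median of -0.18, and 0 of them passed by the authors' deposited adjusted p (1 lower and 3 higher at an unadjusted p under 0.05). The part of these markers in the lower values of the oxidative phosphorylation genes was not tested.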

How the data were processed

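Poly(A) RNA of whole gravid adults was sequenced from 2 libraries of YY1449 and 2 of N2. Per the labels' protocols, RNA was extracted with TRIzol, purified in 2 rounds on oligo(dT) beads and made into Nextera XT libraries, which keep no record of strand. Builds ce11 and WBcel235 are listed in the submitters' processing notes, as are the tools STAR 2.7.0a, SAMtools 1.3.1, cutadapt 1.14 and Trim Galore 0.4.4. The sources used here give neither the tool that counted reads nor the model that was fitted.

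The files used were 2 comparison tables deposited by the authors, the smaller with exactly the 3254 features called in the larger. Per the file headers, one deposited signal column gives a mean of normalized counts over the libraries. A log2 fold change stands in the deposited log2 column, and another deposited column is its standard error. The deposited score column is the test statistic, equal to log2 over standard error within 1.1e-13. The deposited p-value column is its two-sided normal p, and the adjusted p-value column equals the Benjamini-Hochberg adjustment over all 18638 features, within 1.8e-15.

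Means per genotype were computed from the deposited mean and log2 fold change, taking the mean as an equal average of both genotypes. No count model was fitted. The read numbers given for cyc-2.2 come from relative library sizes read from the steps between the lowest deposited means. Their interval is an exact Clopper-Pearson interval. Of 18468 gene names, 18294 were found in the WBcel235 annotation of Ensembl release 115, and levels per kb use merged exons. Symbols of mitochondrial genes and of subunits listed under sequence names come from the RefSeq gene table. The precision differs between genes: standard errors of log2 had a median of 0.135 for features with a mean of at least 1000, and 4 of the 46 genes had errors above 0.25. Replicates are those the labels name. P-values measure only the spread between these libraries, as the deposited errors record it, and how those errors were estimated is not given.

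The genes, lists and tests were chosen with earlier results of these data known. Named genes are every mitochondrial gene, every nuclear gene called, 5 groups of paralogs whatever their values, gas-1, isp-1, mev-1 and lpd-5, the gene of highest level per kb in each complex, and up to 3 genes of smallest adjusted p per list. Others were named to account for every member. Alternatives recentred the fold changes, removed a lowess trend with exon length (fraction 0.3), replaced the normal by a t distribution, kept only features with a mean of at least 10, or moved the adjusted p threshold. The trend step was tested on simulated data. Python 3.11.15, pandas 2.3.3, scipy 1.17.1 and statsmodels 0.14.6 were used.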

Additional observations from a re-analysis of the deposited data

How the results depend on the processing

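Under recentring, removal of the length trend, the restriction to features with a mean of at least 10 and other thresholds, 6 of the 46 genes changed sign, each once the length trend was removed and none of them called there or in the main result. Their log2 values became 0.056 for asg-1, 0.15 for sdhd-1, 0.071 for atp-4, 0.075 for atp-5, 0.059 for sdhb-1 and 0.079 for cox-11, each within 1 standard error of 0 but sdhd-1. That setting left 15 genes lower and 1 higher, and moved the median log2 to -0.57 for mitochondrial genes and -0.14 for nuclear genes, against main values of -0.76 and -0.24. Recentring gave 21 lower and 1 higher. With the t distribution in place of the normal, 0 genes were higher and 0 lower, so 0 mitochondrial and 0 nuclear genes passed, with a smallest adjusted p of 0.682. Under it 0 of all 18638 features of the authors' deposited table passed, so that setting does not set these genes apart from any others. At an adjusted p under 0.01, 9 mitochondrial and 6 nuclear genes passed, and under 0.1, 11 and 12 did. With features of a mean of at least 10 alone, 20 genes were lower and 1 higher.

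No paired analysis was possible because no values per library were analysed. For the same reason leaving out each replicate was not run, and the correction for GC content was not run because no genome was used here. The smallest absolute log2 called among the 46 genes was 0.34, that of isp-1, and 4 of the 46 had a standard error above 0.25.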

Other observations

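Further respiratory chain genes stand in the table under sequence names or other classes and were named from the RefSeq gene table after the table's values had been seen. Of these 33 genes, 12 were lower in YY1449 and 0 higher by the authors' deposited adjusted p (17 lower and 0 higher at an unadjusted p under 0.05). Over all features 8.04% were lower and 9.42% higher, and over features with a mean of at least 1000, 14.5% and 32.5%. Negative log2 values were found for 32, and the median was -0.34. Of 25 subunits of complex I, 11 were lower. The core subunit nduv-2 (F53F4.10) had 1460 normalized counts in YY1449 and 2763 in N2, with a log2 of -0.92 ± 0.13 (adjusted p = 8.6e-11) by the authors' deposited table. The subunit nduv-3 (Y69A2AR.3) had 78.9 in YY1449 and 171 in N2, with a log2 of -1.12 ± 0.31 (adjusted p = 0.00352) by the authors' deposited table. The gene nduf-2.2, a homolog of the same complex I subunit as gas-1, was the one positive value of the 33, at 0.04 ± 0.13 in that table.

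Of 7 nuclear subunits and assembly factors of complex IV found outside the naming rule, all had negative log2 values, with a median of -0.44 in the authors' deposited table, against -1.08 over its 3 mitochondrial subunits. The subunits cox-5A, cox-5B and cox-6A were not matched by RefSeq symbol or sequence name, so the set of 7 is not complete. An adjusted p under 0.05 was reached by 1 of the 7, cox-14 (T20G5.14), with 285 normalized counts in YY1449 and 445 in N2 and a log2 of -0.64 ± 0.20 (adjusted p = 0.0120) by the authors' deposited table. The subunits cox-6C (F29C4.2) and cox-7C (F26E4.6) were at -0.47 ± 0.20 and -0.44 ± 0.20 in that table (adjusted p = 0.0868 and 0.128 by the authors), and the abundant subunits cox-4 (W09C5.8) and cox-6B (Y71H2AM.5) had log2 values of -0.04 ± 0.13 each in the authors' deposited table, against -1.12 ± 0.12 for ctc-1 of the same complex. The ATP synthase alpha subunit atp-1 (H28O16.1) had 35145 in YY1449 and 40234 in N2, with a log2 of -0.20 ± 0.13 (adjusted p = 0.365) by the authors' deposited table, beside -0.13 ± 0.12 for its partner atp-2.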
